A study of Mus musculus with 12 samples.

Results

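The Wnt ligand genes described here are 10 of the 19 genes for Wnt proteins in the mouse annotation: Wnt3, Wnt3a, Wnt4, Wnt5a, Wnt5b, Wnt6, Wnt7b, Wnt8a, Wnt10a and Wnt11. They were found by gene identifier in count tables of 55401 genes, and all 10 were matched. RNA-seq was done on 3 lines of totipotent potential stem (TPS) cells and 3 lines of extended pluripotent stem (EPS) cells of the mouse, each sequenced as 2 technical replicates, which made 12 libraries of 13676051 to 21821707 counts. TPS cells are totipotent-like cells held in culture by a chemical cocktail. EPS cells are pluripotent cells that can also give rise to extraembryonic tissue, and TPS cells can be made from them or from 2-cell embryos.

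Both groups were grown on feeder cells, which for TPS cells were mouse embryonic fibroblasts inactivated with mitomycin C. The labels put TPS cells in VCED medium built on 4C basic medium, and EPS cells in LCDM medium. The study's methods describe a TPS medium under the name CPEC, and that VCED names the same cocktail is an assumption here. CPEC has N2B27 or an RPMI medium as its base, with CD1530 (an agonist of the retinoic acid receptor RARγ), VPA (an inhibitor of histone deacetylases), EPZ004777 (an inhibitor of the histone methyltransferase DOT1L) and CHIR-99021. CHIR-99021 inhibits GSK3, the kinase that marks β-catenin for destruction, and so switches on β-catenin signalling without a Wnt protein. As commonly made, LCDM also holds CHIR-99021. The study's embryo-derived TPS lines came from B6-Tg mice, but the strain and origin of each sequenced line and any kinship between a TPS and an EPS line of the same number are not given in the sources used here.

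Wnt proteins are secreted signals that carry a lipid, which the enzyme Porcn attaches to a serine before Wls takes the protein to the cell surface. A Wnt protein joins a Frizzled receptor to the coreceptor Lrp5 or Lrp6, and the complex of Axin, Apc and GSK3 then stops degrading β-catenin, which acts on genes together with TCF/LEF factors. Other Wnt proteins act mainly through Ror2, Ryk or calcium, without β-catenin. In the embryo, Wnt3 is needed for the primitive streak, and in culture Wnt activity helps mouse pluripotent cells to renew themselves.

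The coding sequence around the lipid-bearing serine is printed below for 9 of the 10 ligands, found by the residue pattern CxGxSGSC (x, any residue). That of Wnt8a is not shown here. Each run has 24 bases in coding direction, with the serine codon in capitals, read from the GENCODE M21 transcripts of GRCm38.
Wnt3: tgccacgggttgTCCggcagctgc
Wnt3a: tgccacgggctaTCTggcagctgt
Wnt4: tgtcacggggtgTCGggctcctgc
Wnt5a: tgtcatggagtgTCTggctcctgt
Wnt5b: tgtcacggagtcTCCgggtcctgc
Wnt6: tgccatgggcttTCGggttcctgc
Wnt7b: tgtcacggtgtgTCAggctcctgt
Wnt10a: tgccacggcaccTCAggcagctgc
Wnt11: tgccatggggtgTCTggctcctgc

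Across these 9 sequences, 13 of 24 positions held the same base in all, and the 36 pairs matched at 14 to 21 positions. The pattern used to find them sets the cysteines, glycines and serines, so part of this match was fixed by the search. The runs lie in coding exons: chr11:103812314-103812337 on the plus strand in exon 4 of 5 of Wnt3, chr11:59250053-59250076 on the minus strand in exon 4 of 4 of Wnt3a, chr4:137296345-137296368 on the plus strand in exon 5 of 5 of Wnt4, and chr14:28522515-28522538 on the plus strand in exon 5 of 5 of Wnt5a. Those of Wnt5b and Wnt7b are on the minus strand, at chr6:119433800-119433823 in exon 5 of 5 and chr15:85537812-85537835 in exon 4 of 4. The run of Wnt6 is at chr1:74784172-74784195 in exon 4 of 4, that of Wnt10a at chr1:74803156-74803179 in exon 4 of 4, and that of Wnt11 at chr7:98850260-98850283 in exon 6 of 7, all on the plus strand. No stretch of 50 bases in the transcripts of 1 member was found in those of another member, so reads of that length are not shared between the members themselves. With other genes, Wnt4, Wnt5a, Wnt7b and Wnt11 shared 4.33%, 3.38%, 3.88% and 7.46% of their stretches of that length, and the remaining 6 members shared none.

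In the files' build, GRCm38, Wnt6 (chr1:74771892-74785322) and Wnt10a (chr1:74791516-74804179) lie 6194 bases apart on the plus strand. Wnt3 (chr11:103774150-103817957, plus strand) lies 24329 bases from Wnt9b, and Wnt3a (chr11:59248033-59290752, minus strand) lies 16176 bases from Wnt9a. No other Wnt gene lies nearby for the next members: Wnt4 at chr4:137277489-137299726, Wnt5a at chr14:28504750-28527448 and Wnt11 at chr7:98835112-98855195, all on the plus strand, and Wnt5b at chr6:119432531-119544347 and Wnt7b at chr15:85535437-85582473 on the minus strand. The strand setting of the counting is not given, and 3 members overlap the exons of another gene. These partners had few counts: Gm2670, antisense to Wnt5a, had 2 to 27 a line, AU022754, antisense to Wnt7b, had 0 to 1, and Gm8398, a pseudogene within Wnt11, had 0.

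Promoter windows of RefSeq (GRCm38.p6), which run from 250 bases before to 50 after a start site, were found for 6 members, with 9 windows in all. These windows do not cover Wnt5a, Wnt7b, Wnt8a and Wnt10a. Since Wnt3 and Wnt4 were both higher in TPS cells, the bases upstream of their start sites are shown, with no capitals because neither motif searched was found in them.
Wnt3, chr11:103773925-103774149, plus strand: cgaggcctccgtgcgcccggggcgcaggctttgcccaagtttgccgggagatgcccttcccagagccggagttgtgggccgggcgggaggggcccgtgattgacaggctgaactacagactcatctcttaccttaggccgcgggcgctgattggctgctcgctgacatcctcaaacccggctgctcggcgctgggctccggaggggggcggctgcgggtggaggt
Wnt4, chr4:137277385-137277488, plus strand: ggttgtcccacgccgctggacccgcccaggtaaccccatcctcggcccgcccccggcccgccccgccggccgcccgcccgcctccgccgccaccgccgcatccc

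The 225 bases before Wnt3 are 68.9% G and C, and the 104 bases before Wnt4 are 83.7%. On either strand, CTTTGA, the core to which TCF/LEF factors bind, was found in 2 of the 9 member windows (of Wnt5b and Wnt11) and in 16% of all 32851 windows. AGGTCA, the core to which retinoic acid receptors bind, was found in 0 of the 9 and in 16.3% of all. The 2 motifs differ in letters and do not overlap each other.

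Marker genes, chosen with earlier results of these data known, were read before the ligands were compared, as a description of the lines. All 5 genes of the 2-cell program rose in TPS cells; Zscan4c, for example, stood at 89.4 ± 16.7 CPM in TPS cells against 0.0196 ± 0.0340 in EPS cells (mean ± SD, n = 3 lines each). CPM gives the counts per 1000000 of the library total, after TMM scaling of that total. Of 6 pluripotency genes, Pou5f1, Esrrb and Klf4 fell, and Sox2, Nanog and Zfp42 did not pass the test.

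Markers of other cells also differed between the groups and among lines. Of 16 fibroblast genes, 10 rose in TPS cells. That count rested on single lines: it was 2 without TPS line 1, 3 without EPS line 2, 4 without TPS line 3, 6 without EPS line 3, 7 without EPS line 1 and 11 without TPS line 2. The summed level of the list was 6456, 3546 and 3761 CPM in TPS lines 1 to 3 against 338, 1343 and 1442 CPM in EPS lines 1 to 3. No fibroblast gene was at 0 in any line. TPS line 2 stood apart in the keratins of trophectoderm, the outer layer of the blastocyst: Krt8 was at 243 CPM there and at 4.85 to 32.8 CPM in the other 5 lines. The 7 trophectoderm genes summed to 611 CPM in TPS line 2 and to 96.4 to 207 CPM elsewhere, a gap that the keratins Krt7, Krt8 and Krt18 carried. Without these 3 genes the list summed to 121.9, 136.8 and 145.7 CPM in TPS lines 1 to 3. In EPS lines 1 to 3 it then summed to 117.3, 138.2 and 80.8 CPM, and the groups overlapped. Most of this remaining sum was Tfap2c, at 118.6, 129.5 and 135.1 CPM in TPS lines and 117.3, 137.8 and 79.9 CPM in EPS lines. Among TPS lines, the keratins and Gata3 were highest in line 2, Cdx2 and Tfap2c in line 3 and Elf5 in line 1. Of 6 trophectoderm genes tested, 2 (Cdx2 and Gata3) were higher in TPS cells, and EPS line 1 had 0 counts of Cdx2, Gata3 and Elf5. Of 6 genes of primitive endoderm, the layer that forms the yolk sac lining, 4 (Gata6, Sox17, Pdgfra and Dab2) rose, and none was at 0 in any line. Their sum was 111.6, 54.9 and 82.5 CPM in TPS lines 1 to 3 and 18.3, 23.5 and 30.3 CPM in EPS lines 1 to 3. Pdgfra and Dab2, which other cells including fibroblasts also express, carried most of it and were lowest among TPS lines in line 2. Without these 2 genes the sum was 11.1, 23.5 and 20.15 CPM in TPS lines 1 to 3 and 8.81, 8.42 and 10.05 CPM in EPS lines 1 to 3. Within TPS cells, Gata6, Sox17 and Gata4 were highest in line 2 and Sox7 in line 3. The part of either cell type in the ligand levels was not tested. Since the samples are bulk RNA, more cells of a type and more RNA per cell cannot be told apart.

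Of the 10 Wnt ligands, 9 had enough counts for the test across genes, edgeR's quasi-likelihood test with Benjamini-Hochberg adjustment over 17468 genes. Wnt3, Wnt4, Wnt7b and Wnt8a were higher in TPS cells at an adjusted p under 0.05, so 4 of 9 passed, where 14.4% of all tested genes were called higher. At an unadjusted p under 0.05, 5 of 9 were higher and 0 lower, beside 21.8% and 15.2% of all genes. By adjusted p, 0 of 9 were lower in edgeR, where 7.34% of all genes were called lower, and the count was also 0 with DESeq2 and limma-voom. Every TPS line was above every EPS line for 5 of the 9, which was so for 23.6% of all genes, while the opposite held for 0 of the 9 and for 19.1% of all genes. Without TPS line 2, whose keratins stood apart, 4 were again called (Wnt3, Wnt5a, Wnt7b and Wnt8a). Without EPS line 1 the call was left for 1 (Wnt8a), and without EPS line 2 for 2 (Wnt7b and Wnt8a). Over all genes the calls fell in these fits too. There, 2234 were higher without TPS line 2, 1724 without EPS line 1 and 1647 without EPS line 2, beside 2509 with all lines. The median log2 fold change of the 9 was 2.35, beside 0.00 over all tested genes. The members were chosen with earlier results of these data known. Wnt4 (1, 4 and 11 counts in EPS lines) and Wnt8a (0, 13 and 30) met the count filter through their TPS lines, which left them little room to be called lower. The shares of all genes are thus given as a description, not as a test of the members as a set.

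**Figure D1:**
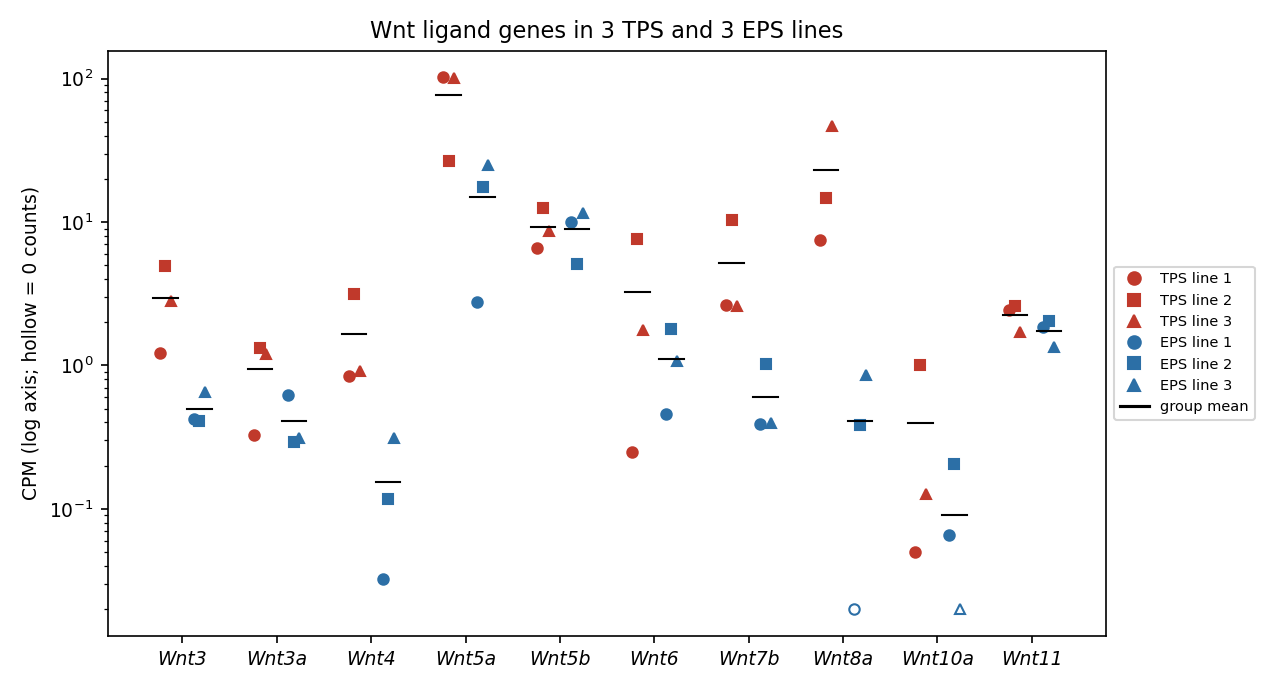
Level of each Wnt ligand gene (CPM, log axis) in each of the 3 TPS lines (red) and 3 EPS lines (blue); black bars are group means, and hollow points at the foot of the axis mark lines with 0 counts. The groups do not overlap for Wnt3, Wnt4, Wnt5a, Wnt7b and Wnt8a, and TPS line 2 (red squares) is the highest TPS line for 8 of the 10 genes.

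Wnt8a, which signals through β-catenin and acts in the early patterning of the embryo, had the largest fold change of the 10. The gene lies on chromosome 18 (chr18:34542313-34548273, plus strand). Its level was 7.55, 14.6 and 46.8 CPM in TPS lines 1 to 3 and 0, 0.383 and 0.854 CPM in EPS lines 1 to 3. Even the lowest TPS line was 8.84 times the highest EPS line. In single libraries the TPS counts ran from 124 to 774 and the EPS counts from 0 to 18. With 0 counts in EPS line 1, a level of up to 0.0979 CPM, the worth of 3 counts, is still allowed there; this limit covers counting error only. The log2 fold change was 5.76 ± 1.10 (SE; adjusted p = 0.0119 by edgeR's quasi-likelihood test), and the call held when each of the 6 lines was left out in turn, at log2 fold changes from 4.71 without TPS line 3 to 6.83 without EPS line 3. The mean over TPS lines was 55.8 times that over EPS lines. Among TPS lines the level differed 6.21-fold, with line 3 highest.

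Wnt3, the β-catenin ligand of the primitive streak, had 1.22, 4.90 and 2.80 CPM in TPS lines 1 to 3. In EPS lines 1 to 3 it had 0.424, 0.412 and 0.655 CPM. The groups did not overlap, the lowest TPS line being 1.87 times the highest EPS line. The log2 fold change was 2.57 ± 0.57 (SE; adjusted p = 0.0188 by edgeR). Its call rested on single lines: without TPS line 3, EPS line 1 or EPS line 2 the adjusted p was 0.0507, 0.0620 and 0.0666, at log2 fold changes of 2.61, 2.44 and 2.43. Wnt3a, its close relative and the Wnt protein often added to stem cell cultures, did not separate the groups. It stood at 0.325, 1.32 and 1.21 CPM in TPS lines against 0.620, 0.294 and 0.313 CPM in EPS lines, and the groups overlapped because TPS line 1 was below EPS line 1. The log2 difference of 1.21 ± 0.62 (SE) did not pass the test (adjusted p = 0.194 by edgeR). It was 1.80 from technical replicate 1 alone and 0.55 from technical replicate 2 alone.

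Wnt7b, known from the lung and the placenta, was at 2.62, 10.3 and 2.61 CPM in TPS lines and at 0.392, 1.03 and 0.399 CPM in EPS lines. Line 2 was the highest in both groups, and the groups did not overlap. The log2 fold change was 3.08 ± 0.71 (SE; adjusted p = 0.0221 by edgeR). Without EPS line 1 or EPS line 3 the adjusted p was 0.0715 and 0.0635, at log2 fold changes of 2.83 and 2.84. It was still called without TPS line 2, at 2.09 (adjusted p = 0.0426), and without EPS line 2, at 3.68 (adjusted p = 0.0384).

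Wnt6 and Wnt10a, neighbours on chromosome 1 and both expressed in epithelia, were carried by TPS line 2. Wnt6 stood at 0.2498, 7.64 and 1.78 CPM in TPS lines and at 0.457, 1.80 and 1.08 CPM in EPS lines. TPS line 2 was thus 30.6 times TPS line 1, which was the lowest of all 6 lines. The log2 difference was 1.53 ± 1.04 (SE; adjusted p = 0.325 by edgeR), and it turned to -0.15 without TPS line 2. Wnt10a had 2, 39 and 4 counts in TPS lines and 2, 7 and 0 in EPS lines, too few for the test. Only TPS line 2 reached 1.01 CPM, and the other 5 lines were at 0.206 CPM or less.

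Wnt4, needed for the kidney and the female reproductive tract, was higher in TPS cells. It had 0.849, 3.16 and 0.922 CPM in TPS lines and 0.0327, 0.118 and 0.313 CPM in EPS lines, the latter from 1, 4 and 11 counts. The groups did not overlap, and the lowest TPS line was 2.71 times the highest EPS line. At a log2 fold change of 3.36 ± 0.84 (SE) the adjusted p was 0.0281 by edgeR. Without TPS line 2, EPS line 1 or EPS line 2 the adjusted p was 0.0687, 0.0720 and 0.0909, at log2 fold changes of 2.46, 2.88 and 3.17. Without EPS line 3 the log2 fold change was 4.35 (adjusted p = 0.0328), and from technical replicate 2 alone it was 3.17 (adjusted p = 0.0745).

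Wnt5a, which drives cell movement and limb and gut outgrowth and is made by many fibroblasts, had the most counts of the 10. Its level was 102, 26.8 and 101 CPM in TPS lines 1 to 3 and 2.78, 17.4 and 24.8 CPM in EPS lines 1 to 3. TPS lines 1 and 3 were far above the rest, but TPS line 2 was only 1.08 times EPS line 3. The log2 difference of 2.35 ± 0.78 (SE) did not pass the test (adjusted p = 0.0664 by edgeR); without TPS line 2 it was 2.75 and passed (adjusted p = 0.0432). Within TPS cells, 12 of the 16 fibroblast genes were lowest in line 2 too: Dcn, for example, was at 332, 42.8 and 205 CPM and Lum at 59.4, 3.39 and 25.9 CPM in TPS lines 1 to 3. The other 4 genes, the collagens Col1a1, Col1a2, Col3a1 and Col5a1, were lowest in line 3, Col1a1 being at 2363, 1740 and 1386 CPM in TPS lines 1 to 3. In EPS cells, line 1 was lowest for both Wnt5a and the summed fibroblast genes (338 CPM). The part of fibroblast RNA in the level of Wnt5a was not tested.

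Wnt5b, the relative of Wnt5a, did not separate the groups. It stood at 6.60, 12.5 and 8.64 CPM in TPS lines and at 9.99, 5.12 and 11.6 CPM in EPS lines, so that the lowest line was an EPS line and the highest a TPS line. The log2 difference was 0.05 ± 0.37 (SE; adjusted p = 0.931 by edgeR), and it changed sign without TPS line 2 (-0.23). Wnt11, which guides cell movement in gastrulation and heart formation, had 2.42, 2.59 and 1.72 CPM in TPS lines and 1.86, 2.03 and 1.34 CPM in EPS lines. The ranges overlapped, and the log2 difference of 0.37 ± 0.35 (SE) did not pass the test (adjusted p = 0.484 by edgeR).

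To set the genes beside each other, counts were divided by the length of each gene's exons and scaled to the same total in every line (TPM). In TPS cells Wnt8a (37.1 ± 33.8 TPM, mean ± SD, n = 3) and Wnt5a (27.4 ± 15.3) led, followed by Wnt5b (9.85 ± 3.34), Wnt6 (4.18 ± 5.09), Wnt7b (2.99 ± 2.60) and Wnt3 (2.74 ± 1.72). Wnt11, Wnt4, Wnt3a and Wnt10a were at 1.53 TPM or less. In this order, only the steps from Wnt5a to Wnt5b and from Wnt5b to Wnt6 were wider than the larger SD of the pair, and Wnt5a was above Wnt5b in 2 of 3 lines.

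In EPS cells the order of levels per length began with Wnt5b (8.26 ± 3.30 TPM) and Wnt5a (4.95 ± 3.84 TPM). Wnt6 (1.29 ± 0.82 TPM), Wnt11 (1.03 ± 0.21 TPM) and Wnt8a (0.617 ± 0.646 TPM) came next, and the other 5 were at 0.403 TPM or less. Neighbours in this order did not differ by more than the larger SD, except for Wnt7b (0.310 ± 0.200 TPM) and Wnt4 (0.0953 ± 0.0919 TPM).

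Summed over the 10 ligands, the level per length was 60.6, 74.0 and 131 TPM in TPS lines 1 to 3 and 11.6, 16.04 and 24.6 TPM in EPS lines 1 to 3. Every TPS line was above every EPS line. The makeup differed between lines: Wnt5a gave 59.8%, 13.2% and 27.8% of the sum in TPS lines 1 to 3, and Wnt8a gave 19.8%, 32.2% and 57.9%. In EPS lines Wnt5b gave 71.6%, 30.9% and 46.9% of the sum, and Wnt8a at most 5.23%.

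**Figure D2:**
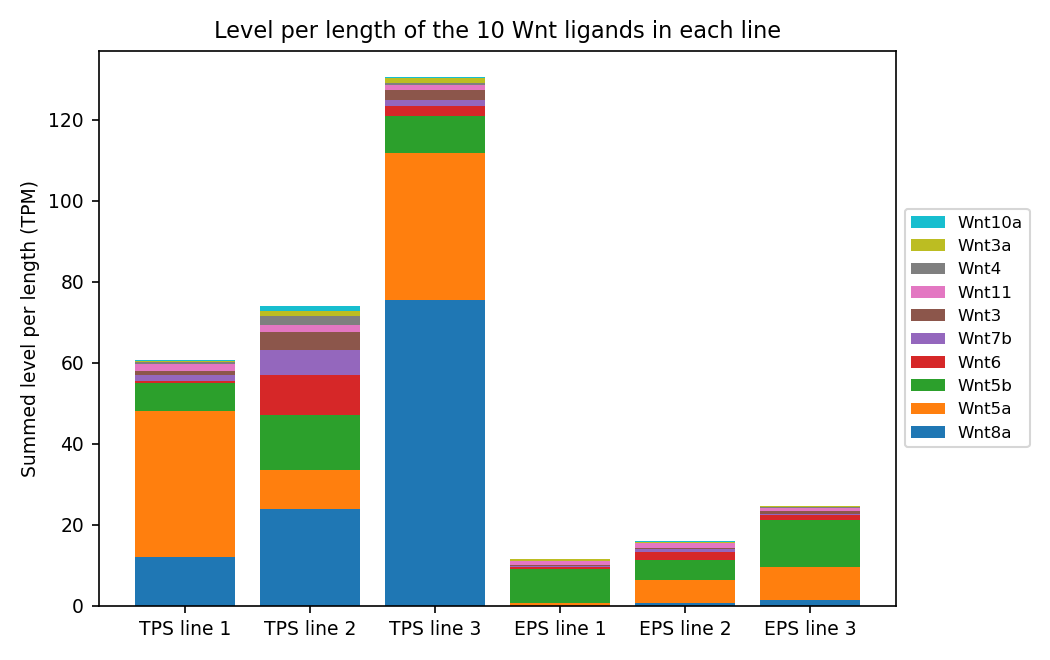
Stacked bars of the level per length (TPM, linear axis from 0) of the 10 Wnt ligands in each line. The sums run from 60.6 to 131 TPM in TPS lines and from 11.6 to 24.6 TPM in EPS lines; Wnt5a (orange) is the largest part of TPS line 1, Wnt8a (blue) of TPS lines 2 and 3, and Wnt5b (green) of EPS lines 1 and 3.

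The TPS lines differed in which ligands they held. Line 2 was the highest TPS line for 8 of the 10 ligands, all but Wnt5a and Wnt8a, and it was the highest for 35.1% of all tested genes. It held 85.1% of the CPM of Wnt10a summed over the TPS lines, 79.0% for Wnt6, 66.3% for Wnt7b and 64.1% for Wnt4. The same line stood apart in keratins, Krt18 being at 198 CPM against 8.77 and 26.5 CPM in lines 1 and 3. It held 64.0% of the summed trophectoderm genes, but 33.8% of that sum without Krt7, Krt8 and Krt18. The latter value rested mostly on Tfap2c, which gave 129.5 of the remaining 136.8 CPM in line 2. The part of keratin-bearing cells in these ligand levels was not tested. Line 3 held 67.9% of Wnt8a and 49.9% of the summed primitive streak genes, most of which was T, at 1.95, 17.0 and 29.7 CPM in TPS lines 1 to 3. Without T the list summed to 9.92, 19.85 and 18.9 CPM in these lines. In EPS lines 1 to 3 it then summed to 11.5, 20.6 and 10.6 CPM, and the groups overlapped. Of the 7 genes, within TPS cells, 3 (Mixl1, Msgn1 and Evx1) were highest in line 2 and 4 (T, Eomes, Mesp1 and Tbx6) in line 3. Of 5 tested genes of that list, 1 (Evx1) was higher in TPS cells, and the summed level was 11.9 to 48.5 CPM in TPS lines and 19.3 to 27.4 CPM in EPS lines. Their part in the level of Wnt8a was not tested.

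**Figure D3:**
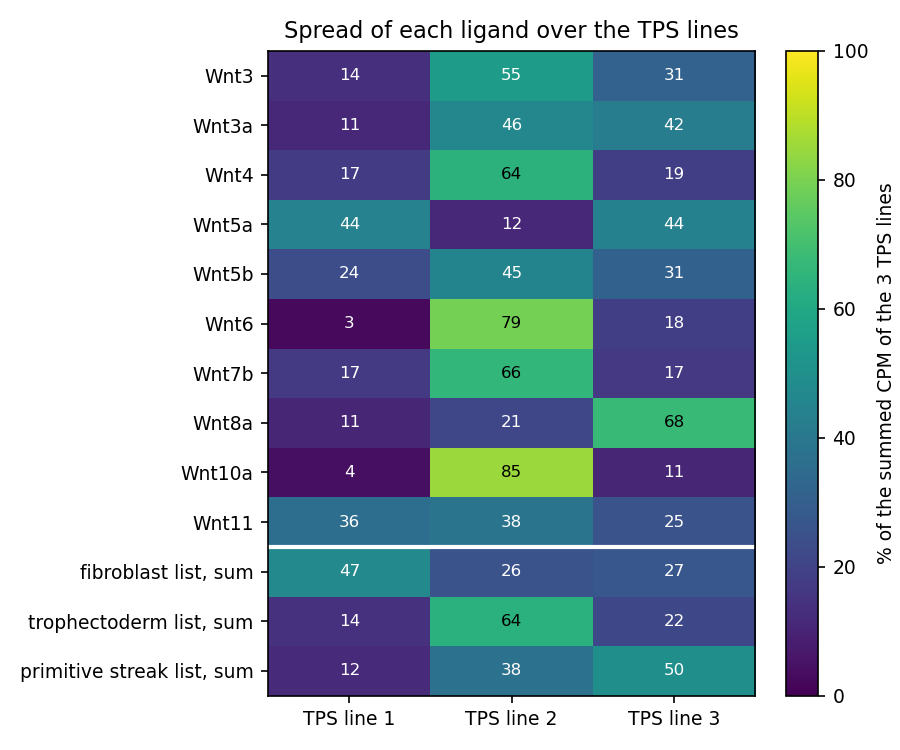
Share of each Wnt ligand's CPM, summed over the 3 TPS lines, that each line holds (colour and printed percent), with the summed fibroblast, trophectoderm and primitive streak marker genes beneath the white line. Line 2 holds 85.1% of Wnt10a and 64.0% of the trophectoderm sum, which Krt8 and Krt18 dominate there, line 3 holds 67.9% of Wnt8a, and line 1 holds 44.4% of Wnt5a and 46.9% of the fibroblast genes.

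As a mean over all lines, Wnt8a had the highest level per length of the members (18.9 TPM, beside 16.2 TPM for Wnt5a). In EPS cells alone it did not lead. Over the 12 libraries, the genes whose log2(CPM + 1) was most like that of Wnt8a were Odc1 (Pearson r = 0.993), Zyx (r = 0.987) and Nipal4 (r = 0.986). They were found among 14594 genes with a mean of at least 1 CPM. Odc1 encodes ornithine decarboxylase, the first enzyme of polyamine synthesis, and Zyx encodes zyxin, a protein of focal adhesions. The libraries include pairs from the same line, and Wnt8a separates the groups, so r is given as a description.

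Of the other 9 Wnt ligand genes, 4 had enough counts to test. Wnt2b and Wnt9a were higher in TPS cells. Wnt2b, a β-catenin ligand, was at 1.37, 5.49 and 1.43 CPM in TPS lines and at 0.131, 0.0883 and 0.199 CPM in EPS lines (log2 fold change 4.27 ± 0.75 SE, adjusted p = 0.00880 by edgeR). Wnt9a, the neighbour of Wnt3a, was at 4.37, 7.44 and 5.08 CPM in TPS lines and at 1.21, 1.62 and 1.37 CPM in EPS lines (2.01 ± 0.34 SE, adjusted p = 0.00777 by edgeR). Neither overlapped between the groups. Wnt7a and Wnt10b did not pass (adjusted p = 0.147 and 0.144 by edgeR), and both had their highest level in TPS line 2, at 2.15 and 4.22 CPM. Wnt2, Wnt8b, Wnt9b and Wnt16 stayed at 8 counts or fewer in any library. Line 2 was the highest TPS line for 15 of all 19 ligands.

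The genes that act on Wnt proteins or carry their signal were taken from lists of the pathway. Together with the other 9 ligands, the lists held 83 genes, of which 75 were tested: 27 were called higher and 5 lower in TPS cells, beside 14.4% and 7.34% of all tested genes. Their median log2 fold change was 0.62. With any 1 line left out, 12 to 17 were called higher, the fewest without TPS line 3, and 3 to 6 lower. The fibroblast genes were higher in TPS cells as well, at 3546 to 6456 CPM in sum against 338 to 1442 CPM, and their part in the changes of the pathway genes was not tested.

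**Figure D4:**
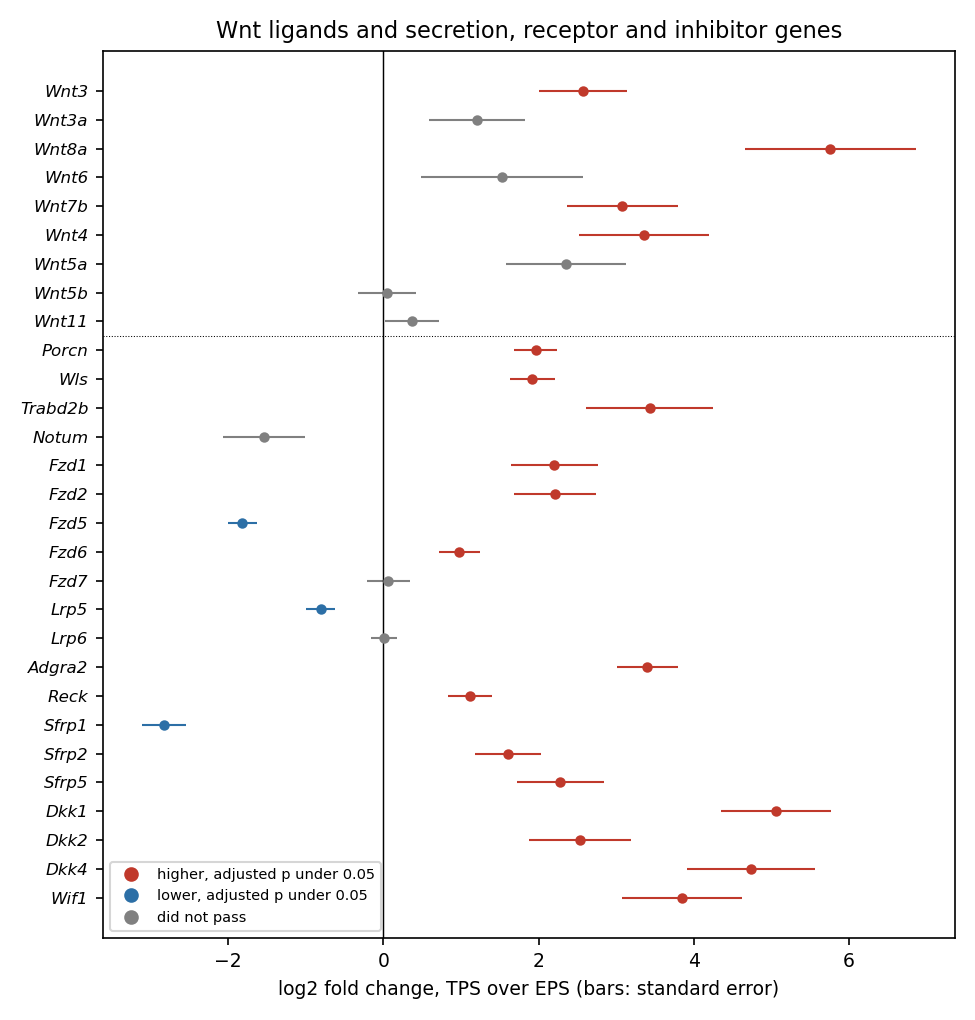
Fitted log2 fold changes of TPS over EPS cells with standard errors for the 9 tested Wnt ligands (above the dotted line) and for genes of Wnt secretion, receptors, coreceptors and secreted inhibitors; red and blue mark an adjusted p under 0.05. Among the ligands, Wnt8a has the largest value (5.76); Porcn (1.96) and Wls (1.92) are higher in TPS cells, and Sfrp1 (-2.83) and Fzd5 (-1.82) lower.

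Porcn and Wls, which act in making and releasing Wnt proteins, and Trabd2b, which cuts them, rose in TPS cells, so 3 of the 4 genes of this list rose. Porcn, the enzyme that adds the lipid at the serine shown above, was at 35.8, 52.1 and 71.8 CPM in TPS lines and at 12.4, 16.5 and 12.1 CPM in EPS lines (log2 fold change 1.96 ± 0.28 SE, adjusted p = 0.00446 by edgeR). Wls, the carrier that takes Wnt proteins to the cell surface, was at 88.0, 129 and 71.6 CPM in TPS lines against 17.0, 28.3 and 30.7 CPM in EPS lines (1.92 ± 0.29 SE, adjusted p = 0.00593 by edgeR). Neither overlapped between the groups. Trabd2b had 27, 33 and 26 counts in TPS lines against 0, 6 and 1 (adjusted p = 0.0244 by edgeR). Notum, the enzyme that removes the lipid, was at 7.60, 5.11 and 7.66 CPM in TPS lines and at 11.1, 38.2 and 9.82 CPM in EPS lines. Every TPS line was below every EPS line, but its log2 difference of -1.54 ± 0.53 (SE) did not pass (adjusted p = 0.0756 by edgeR).

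Of 10 Frizzled genes, Fzd1, Fzd2 and Fzd6 rose, Fzd5 fell and 6 did not pass. Fzd2 was at 30.3, 57.8 and 44.6 CPM in TPS lines and at 2.97, 14.6 and 11.1 CPM in EPS lines (2.21 ± 0.53 SE on the log2 scale, adjusted p = 0.0252 by edgeR). Fzd5, a receptor of β-catenin signalling, was at 41.9, 40.7 and 35.2 CPM in TPS lines and at 171, 110 and 136 CPM in EPS lines, a log2 fold change of -1.82 ± 0.19 (SE, adjusted p = 0.00197 by edgeR). Fzd7, which took the most counts of the family, was at 94.4 ± 4.7 CPM in TPS and 90.6 ± 37.7 CPM in EPS cells (mean ± SD, n = 3 lines) and did not pass the test.

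Of 9 coreceptor genes, Adgra2 and Reck, which together serve Wnt7a and Wnt7b at the cell surface, rose, Lrp5 fell, and 6 did not pass. Adgra2 was at 65.2, 68.8 and 76.9 CPM in TPS lines and at 3.00, 7.42 and 9.51 CPM in EPS lines (3.40 ± 0.39 SE on the log2 scale, adjusted p = 0.00261 by edgeR). Reck was at 29.2, 15.5 and 22.5 CPM against 7.97, 10.8 and 12.2 CPM (1.12 ± 0.28 SE, adjusted p = 0.0292 by edgeR). For both genes the groups did not overlap. Lrp5 was at 77.1, 109.8 and 88.3 CPM in TPS lines and at 163, 189 and 130 CPM in EPS lines, a log2 fold change of -0.81 ± 0.19 (SE, adjusted p = 0.0231 by edgeR). Lrp6 was at 75.7 ± 5.2 CPM in TPS and 75.3 ± 13.7 CPM in EPS cells, and Ptk7, with the most counts of the list, at 313 ± 63 and 295 ± 100 CPM (mean ± SD, n = 3 lines).

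Of the 10 secreted inhibitors tested, 6 rose, 1 fell and 3 did not pass, beside 14.4% higher and 7.34% lower of all tested genes. The summed level of the list went the other way from this count. It was 94.2, 93.0 and 101.8 CPM in TPS lines 1 to 3 against 244.5, 293.1 and 210.7 CPM in EPS lines 1 to 3, where Sfrp1 made up most of it. Dkk1, which blocks Lrp5 and Lrp6, had 38, 162 and 70 counts in TPS lines against 2, 3 and 2 in EPS lines (adjusted p = 0.00453 by edgeR). Dkk4 had 14, 15 and 11 counts against 1, 0 and 0 (adjusted p = 0.00878 by edgeR). Wif1, which binds Wnt proteins directly, had 128, 59 and 37 counts against 9, 1 and 3 (adjusted p = 0.0138 by edgeR). Sfrp5, Dkk2 and Sfrp2 rose as well. Dkk2 was lowest within TPS cells in line 2, at 8.29 CPM against 23.96 and 21.2 CPM in lines 1 and 3, as Wnt5a and 12 of 16 fibroblast genes were. Sfrp1, a soluble Frizzled-like protein, was at 18.8, 34.2 and 35.8 CPM in TPS lines and at 185, 265 and 180 CPM in EPS lines, a log2 fold change of -2.83 ± 0.29 (SE, adjusted p = 0.00194 by edgeR).

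In the R-spondin module, which strengthens Wnt signals by sparing Frizzled receptors, Lgr5 and Lgr6 rose and 6 of 8 tested genes did not pass. Lgr5 had 13, 32 and 15 counts in TPS lines against 3, 1 and 0 in EPS lines (adjusted p = 0.0223 by edgeR). Lgr6 was at 3.65, 3.21 and 2.80 CPM in TPS lines and at 1.67, 1.06 and 0.740 CPM in EPS lines (adjusted p = 0.0339 by edgeR). Lgr4, with the most counts of the list, was at 69.6 ± 8.1 CPM in TPS and 70.2 ± 11.6 CPM in EPS cells (mean ± SD, n = 3 lines).

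Inside the cell, 10 of the 13 genes of Dishevelled and the destruction complex did not pass, and the median log2 fold change of the list was -0.05. Apc2 rose (log2 fold change 1.13 ± 0.30 SE, adjusted p = 0.0341 by edgeR), while Dvl2 (-0.78 ± 0.15 SE, adjusted p = 0.0131) and Csnk1a1 (-0.61 ± 0.15 SE, adjusted p = 0.0302) fell. Ctnnb1, the gene for β-catenin, was at 569 ± 14 CPM in TPS and 510 ± 33 CPM in EPS cells (mean ± SD, n = 3 lines). Of 8 genes for TCF/LEF factors and their partners, 3 rose: Pygo1 (1.82 ± 0.28 SE, adjusted p = 0.00636), Tcf7l1 (0.77 ± 0.19 SE, adjusted p = 0.0255) and Bcl9l (0.71 ± 0.19 SE, adjusted p = 0.0387), all by edgeR. Tcf7l1 is the TCF factor known mainly as a repressor in pluripotent cells. Tcf7, with the most counts of that list, was at 84.0 ± 17.5 CPM in TPS and 110 ± 26 CPM in EPS cells.

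Among 16 genes known as targets or feedback genes of β-catenin, 7 rose in TPS cells and 9 did not pass. Those that rose were Nkd1, Nkd2, Cdx1, Cdx2, Myc, Lgr5 and Dkk1. Cdx1 was at 28.0, 81.3 and 100.1 CPM in TPS lines and at 7.44, 8.33 and 11.6 CPM in EPS lines (log2 fold change 2.93 ± 0.46 SE, adjusted p = 0.00632 by edgeR). Within TPS cells it was lowest in line 1 and highest in line 3, as Wnt8a was. Myc was at 15.6, 19.2 and 48.1 CPM in TPS lines and at 7.28, 5.71 and 9.11 CPM in EPS lines (1.91 ± 0.44 SE, adjusted p = 0.0220 by edgeR). Nkd1, an inhibitor of Dishevelled, was highest in TPS line 2, at 4.02, 20.0 and 6.04 CPM against 2.19, 2.03 and 2.31 CPM (adjusted p = 0.0357 by edgeR). Axin2, the feedback gene most often read as a measure of β-catenin signalling, was at 32.1, 46.8 and 54.5 CPM in TPS lines and at 52.0, 50.9 and 84.8 CPM in EPS lines. The groups overlapped there, and the log2 difference of -0.49 ± 0.27 (SE) did not pass (adjusted p = 0.220 by edgeR). Sp5, T, Lef1, Tcf7, Znrf3 and Ccnd1 did not pass either, and for each of them the groups overlapped. For the remaining 2, Notum and Rnf43, every TPS line was below every EPS line. Rnf43, which removes Frizzled receptors from the surface, was at 1.42, 3.27 and 1.84 CPM in TPS lines and at 5.97, 3.39 and 3.84 CPM in EPS lines. Its log2 difference of -1.01 ± 0.42 (SE) did not pass (adjusted p = 0.121 by edgeR).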

How the data were processed

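Messenger RNA was captured with oligo(dT) and sequenced from both ends. Per the submitters' processing notes, fastp 0.19.7 and STAR 2.7.3a were used, with the mouse build GRCm38. The authors deposited raw counts per gene for each library. The counting tool, annotation release and strand setting are not given in the sources used here.

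Groups, lines and technical replicates came from the labels. Nothing states that the lines were independent derivations, so p-values measure the spread between these lines. Technical replicates differed by more than sampling noise (chi-square per degree of freedom 2.58 to 22.3), so none was a repeated deposit, and the counts of a line were summed. Line totals ranged from 29877215 to 38466294 counts, so that 1 count was worth 0.0250 to 0.0327 CPM. Without molecular identifiers, reads are not independent molecules. After removal of versions, 55141 of 55401 identifiers matched GENCODE M21.

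The 6 lines were fitted with edgeR 4.0.16 (R 4.3.3), using TMM factors, filterByExpr (minimum count 10, total 15) and the quasi-likelihood test. P-values were adjusted over 17468 genes by Benjamini-Hochberg, with a threshold of 0.05. DESeq2 1.42.0 and limma 3.58.1 served as alternatives, beside other scalings, filters and units of replication, and each line was left out in turn. Standard errors of log2 fold changes are their size over the square root of F. TPM used the union of exons, and a count of 0 was read as up to 3 counts. With 3 lines a group, lines far from the others were not looked for by a test.

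The members and gene lists were chosen with earlier results of these data known. The text names all 10 members. Of each pathway list it names the called genes (at most 4 per direction in full) and the one with the most counts. It also names other ligands with over 3 counts in a library and marker genes. Last, it names the 3 genes most like the member with the highest mean level per length over all lines. Some further genes that did not pass, such as Notum, Rnf43, Lrp6 and Axin2, were named after their values were seen.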

Additional observations from a re-analysis of the deposited data

How the results depend on the processing

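The call of Wnt8a held under all 17 alternatives (adjusted p at most 0.0494). Of these, Wnt3 passed in 14 of 17, Wnt7b in 15 of 17, Wnt4 in 11 of 16 and Wnt5a in 3 of 17 (without a filter, over 12 libraries as separate samples, and without TPS line 2). With any line left out, 1 to 4 ligands were called higher and 0 lower, the fewest without EPS line 1 (1) and EPS line 2 (2). Wnt5b turned to -0.22 with technical replicate 1 alone, -0.23 without TPS line 2 and -0.25 without EPS line 2 (range -0.25 to 0.28 with a line left out), and Wnt6 to -0.15 without TPS line 2 (range -0.15 to 2.08). Over all tested genes, 1617 to 2234 were called higher and 493 to 1047 lower with a line left out, beside 2509 and 1282 in the fit of all lines. In the pathway lists it was 12 to 17 higher, the fewest without TPS line 3, and 3 to 6 lower. In the fibroblast list it was 2 to 11 higher, beside 10 with all lines and 2 without TPS line 1. Fits with a line left out have fewer samples. Taking the 12 libraries as separate samples, which counts technical replicates as lines, gave 4067 genes higher, 3610 lower and 11 lower in the pathway lists. Scaling by library size alone gave 745 lower and moved the median of all genes to 0.144 on the log2 scale, and left 4 ligands called. Wnt10a had values only without the filter and with DESeq2 (log2 2.08 to 2.13, adjusted p 0.222 to 0.295).

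Line numbers are shared by label only. Deviations of same-numbered lines from their group means correlated at 0.024, -0.116 and 0.042. No TPS line correlated best with the EPS line of its own number. With the line number as a replicate block, 1714 genes were called higher and 721 lower, 3 ligands (Wnt3, Wnt7b and Wnt8a; Wnt4 had a log2 fold change of 3.37 and an adjusted p of 0.0508, beside 3.36 and 0.0281 without the block) and 2 fibroblast genes higher. The cause was not tested. Depth limits Wnt10a and the EPS levels of Wnt4, where EPS line 1 had 1 count.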
